A study of Sus scrofa with 17 samples.

Results

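The muscle transcriptome of piglets fed the seaweed Ulva lactuca together with ulvan lyase (ULU) was compared with that of piglets on the seaweed-free diet (Control), over 5 and 6 libraries of the 17 sequenced. The libraries were taken by their treatment label, and all 14203 genes of 31908 that passed a filter on low counts were tested. The account concerns pathways and the genes that differed by less than 2-fold. All animals were male Large White × Duroc piglets of 28 days at the start, housed singly in metabolic cages and pair-fed, with an adaptation of 5 days before 2 weeks of the trial. Control piglets ate a cereal and soybean meal feed without seaweed, ULU piglets ate it with 7% Ulva lactuca and 0.01% ulvan lyase, an enzyme that degrades ulvan, a polysaccharide of the seaweed's walls, and UL piglets ate the seaweed without the enzyme. Each library held the RNA of 1 longissimus muscle, read as single reads of 75 nt, and the methods name 6 piglets per diet where 5 ULU libraries were given here.

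The longissimus is a back muscle built mainly of fast fibres, which contract with fast myosin and troponin isoforms and draw much of their energy from glycogen and glucose. Slow fibres in the same muscle use other isoforms and rely more on mitochondria, where pyruvate and fatty acids are oxidised through the tricarboxylic acid (TCA) cycle and the respiratory chain. Muscle also holds a molecular clock, in which BMAL1 and CLOCK activate the genes of the period and cryptochrome proteins that in turn repress them, and it responds to glucocorticoids, insulin and cytokines by changing the genes of fuel use and protein turnover.

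Between 16137365 and 26546810 reads were counted per library, so that 3 reads, the least taken as detectable, stood for 0.13 to 0.195 CPM (counts per 1000000), which covers counting error only. CPM values were scaled with TMM factors, so that they are levels relative to the bulk of the genes in a library. The tissue label was checked on muscle fibre markers. Skeletal actin ACTA1 was the most abundant of them, at 67349 ± 13249 CPM (SD, 6 libraries) for Control beside 104742 ± 28727 CPM (SD, 5 libraries) for ULU, and the creatine kinase gene CKM had 17169 ± 3880 CPM in Control. Of 11 fibre markers 8 were tested, while MYH1, MYH4 and MYH7 carried no symbol in the gene table used.

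Of 7 measures of the libraries 3 differed between the diets at an adjusted p under 0.05. The share of trimmed reads that was counted averaged 51.3% ± 2.66 (SD, n = 6) in Control and 55.1% ± 0.545 (SD, n = 5) in ULU, without overlap (two-sided exact permutation test, p = 0.0108, adjusted p = 0.0253 over 7 measures). Protein-coding genes of the mitochondrial chromosome took 11.7% ± 0.955 of the counts in Control and 8.43% ± 1.20 in ULU, again without overlap (exact permutation, p = 0.00216, adjusted p = 0.0152). For the mitochondrial rRNA genes the shares were 3.11% ± 0.610 and 1.78% ± 0.390 (exact permutation, p = 0.00433, adjusted p = 0.0152). The 10 most abundant genes held 27.5% ± 1.59 and 30.2% ± 2.45 of the counts, with overlap (exact permutation, p = 0.0541, adjusted p = 0.0758). The number of genes at 1 CPM or more was 12235 ± 371 in Control and 11663 ± 374 in ULU, also with overlap (exact permutation, p = 0.0455, adjusted p = 0.0758). No sequencing batch is named in the labels or the paper, so that a batch and the diet cannot be told apart. The part of these measures in the results was not tested beyond the model with the counted share given below.

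Cell type markers were summed in each library. The fibre markers came to between 120956 and 189095 CPM in Control, and to 221762, 224164, 168708, 311095 and 198599 CPM in the 5 ULU libraries. The fibroblast markers came to between 2748 and 5878 CPM in Control and to 4733, 4301, 5890, 2332 and 4014 CPM in ULU, led by the collagen gene COL3A1. Control replicate 25 and ULU replicate 43, the libraries with the most fibre RNA of their diets, were also those with the least fibroblast RNA, and the diets overlapped for both lists.

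No leukocyte, endothelial, fibroblast, smooth muscle, erythrocyte, satellite cell or Schwann cell marker was called by the edgeR quasi-likelihood test, adjusted by Benjamini-Hochberg. All 14 tested leukocyte markers of 19 had a log2(fold change) below 0, with a median of -0.45 (-0.94 to -0.27), and 1 of them had an unadjusted p under 0.05. The brackets after this and later list medians hold the lowest and highest median of the 11 fits without 1 library. The leukocyte markers summed to 207 ± 79.3 CPM in Control and 103, 162, 302, 58.3 and 92.6 CPM in ULU, where TYROBP was the most abundant per length and the lysozyme gene LYZ had no read in any of the 11 libraries. All 9 tested fibroblast markers of 10 were likewise below 0, with a median of -0.43 (-0.54 to -0.31), 4 of them at an unadjusted p under 0.05, and TCF21 stayed under the filter. DESeq2 called no gene of either list, on 17 or on 11 libraries. All 8 tested fibre markers were above 0, with a median of 0.54 (0.43 to 0.64). Of them 2 were called higher, MYH2 and TNNT3, which are described below with the fits that lost their calls. All of the tested fibre markers but CKM also stand in the fast fibre, sarcomere scaffold or calcium handling lists below, which are therefore not separate observations.

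Of the endothelial markers 11 of 12 were tested, 2 above and 9 below 0, with summed levels of 202 ± 31.0 CPM and 186 ± 37.4 CPM led by PECAM1. The 8 smooth muscle and pericyte markers, led by RGS5, came to 470 ± 57.6 and 430 ± 48.9 CPM, with a median of -0.19 (-0.30 to -0.09). Each of these 2 lists had 1 member at an unadjusted p under 0.05 and none called by DESeq2. The 7 satellite cell markers, led by VCAM1, had a median of -0.10 (-0.27 to 0.11) and came to 118 ± 24.2 and 99.5 ± 19.3 CPM. Without VCAM1 the sum was 61.1 ± 8.81 CPM in Control and 68.4 ± 11.2 CPM in ULU, the other way round. DESeq2 called 1 of them, VCAM1 (log2(fold change) -0.86, edgeR adjusted p = 0.056), and 2 had an unadjusted p under 0.05. The erythrocyte markers had HBB at 41.7 ± 13.5 CPM in Control and 53.8 ± 15.5 CPM in ULU and summed levels of 44.2 ± 14.7 and 57.2 ± 15.5 CPM, and none of the 4 tested genes of 7 had an unadjusted p under 0.05 or was called by DESeq2. Of the Schwann cell and nerve markers 6 of 10 were tested, 2 above and 4 below 0 with a median of -0.86 (-1.01 to -0.57) and 2 at an unadjusted p under 0.05, and DESeq2 called 1 of the list. Their summed level of 148 ± 25.3 CPM in Control and 191 ± 36.6 CPM in ULU was mostly PMP22, and without it the sum was 17 ± 7.41 and 13.9 ± 4.47 CPM, the other way round. SOX10 and NEFM had at most 4 reads in a library.

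Of the summed level of the adipocyte markers 88.9% was GPD1, the glycerol-3-phosphate dehydrogenase gene, which muscle fibres also express, and the list median was -1.04 (-1.34 to -0.38). The sum was 1263 ± 289 CPM in Control and 1605 ± 131 CPM in ULU, and without GPD1 it was 213 ± 195 and 91.5 ± 50.6 CPM. The fat hormone gene ADIPOQ had lowest, median and highest Control values of 9.65, 43.1 and 238 CPM and ULU values of 1.22, 35.9, 21.8, 44.7 and 9.29 CPM. Control replicate 24 held the most ADIPOQ, and the diets overlapped. Of the 8 tested members 6 were below 0 and 2 above. Those above were AQP7 (log2(fold change) 1.12, edgeR adjusted p = 0.0813) and GPD1 (log2(fold change) 0.53, edgeR adjusted p = 0.0667). At an unadjusted p under 0.05 there were 2 higher and 3 lower, and DESeq2 called 3 of the list on 17 libraries and 2 on 11. PPARG, the receptor that directs fat cell formation, was the 1 of 8 tested members called (log2(fold change) -1.55 ± 0.37 (SE), edgeR adjusted p = 0.0336), and its call was lost in 6 of the 11 fits without 1 library, all but those without Control replicate 21, 25 or 26 or ULU replicate 41 or 42. In these bulk samples, fewer cells of a type and less RNA per cell cannot be told apart, and the part of the cell types in the differences below was not tested.

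**Figure D1:**
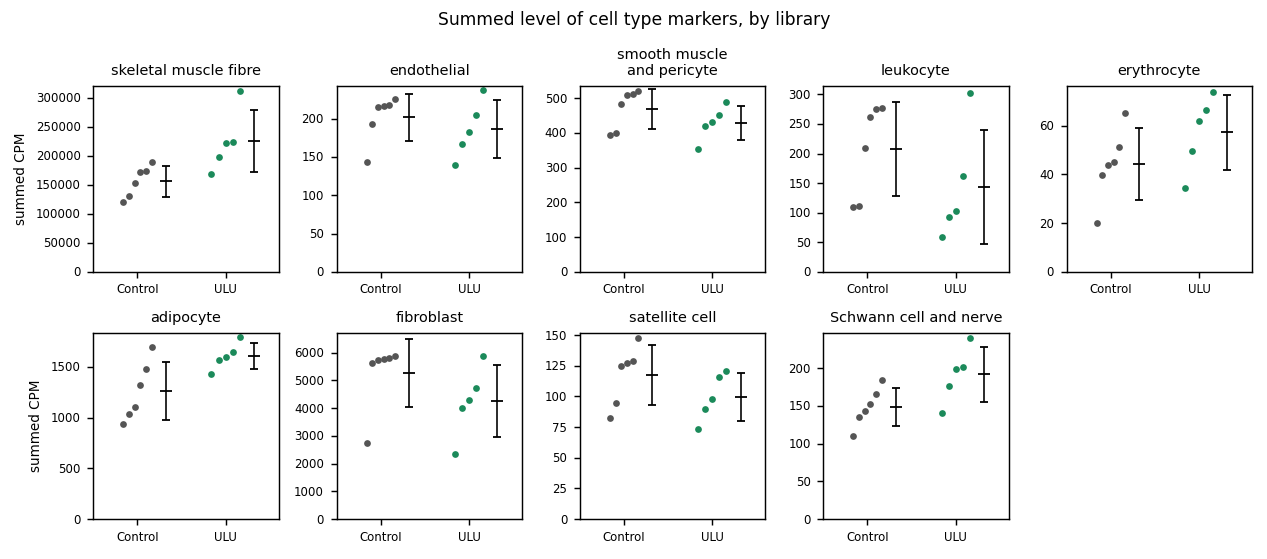
Summed CPM of 9 lists of cell type markers on the vertical axes, with 1 point per library for 6 Control and 5 ULU piglets and the mean ± SD beside them. Control replicate 25 stands apart with 2748 CPM of fibroblast markers, and the ranges of the diets overlap in every panel.

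Genes called higher in muscle of ULU piglets included some of contraction, calcium handling and energy use, mostly by less than 2-fold. Genes called lower included 4 of 11 clock repressors and 4 of 13 genes of the glucocorticoid response, with PER1 in both, and of these only CRY2 by less than 2-fold. Another clock repressor, NFIL3, was called higher. Of the 14203 genes, 423 or 2.98% were called at an adjusted p under 0.05 with the edgeR quasi-likelihood test, adjusted by Benjamini-Hochberg, 282 (1.99%) higher and 141 (0.993%) lower in ULU. Among them, 364 differed by less than 2-fold, 263 higher and 101 lower. The fold limit changed the balance, since 72.3% of the called genes under 2-fold were higher in ULU and 32.2% of the 59 genes at or above it. The median size of the called differences under 2-fold was 1.5-fold, with a median standard error of 0.13 on the log2 scale. At an unadjusted p under 0.05 there were 2678 genes.

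In 169 of the 263 genes called higher under 2-fold, all 5 ULU libraries lay above all 6 Control libraries, and in 57 of the 101 called lower they lay below. Over all tested genes, 327 (2.3%) lay wholly above and 155 (1.09%) wholly below. Called genes were concentrated among abundant ones, where the error was smaller. The 3551 most abundant of the tested genes, from 25.5 CPM upwards, held 187 of the 282 genes called higher and 48 of the 141 called lower, with a median standard error of 0.13. Among the 3551 least abundant the standard error was 0.44, and 16 genes were called. Genes called higher had a median exonic length of 5052 bases and those called lower of 5623 bases, beside 4476 bases for all tested genes.

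The number of calls depended on single libraries. It rose to 799 without Control replicate 25, and fell to 154, 164, 218 and 210 without Control replicates 22, 23, 24 and 26 and to 170, 187, 147 and 252 without ULU replicates 40, 41, 43 and 44. Without both Control replicate 25 and ULU replicate 43, left out together after their values were seen, 431 genes were called, 295 of them among the 423. DESeq2 called 1028 genes on 17 libraries and 844 on 11, edgeR on the 11 libraries called 111, and 228 were called with no filter on low counts. With the share of counted reads as a covariate, 6 genes were called, 3 in each direction.

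**Figure D2:**
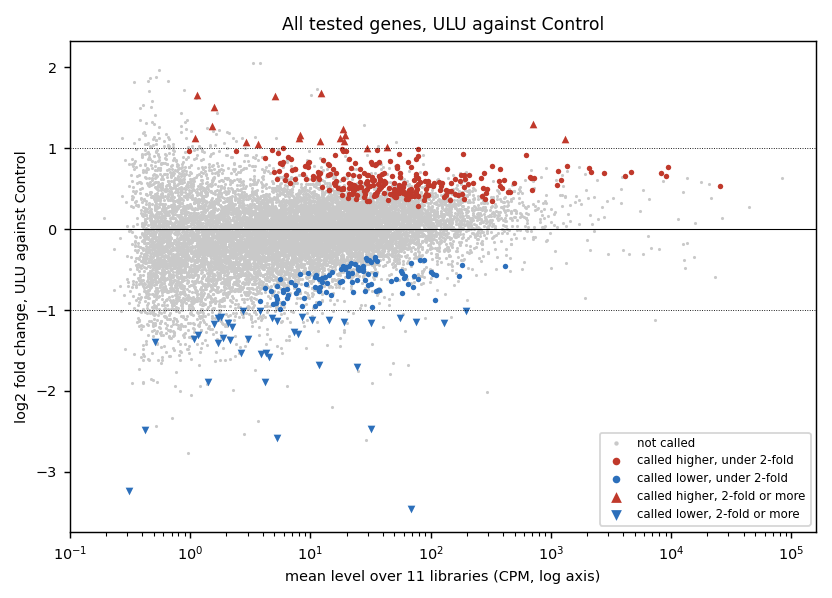
The log2(fold change) of ULU against Control (vertical axis, dotted lines at 2-fold) is plotted against the mean CPM over 11 libraries (log axis) for 14203 genes, with called genes in colour. The 263 genes called higher under 2-fold lie mostly to the right, at a median of 47.9 CPM, while the 40 called lower at 2-fold or more have a median of 4.22 CPM.

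The gene under 2-fold with the smallest p was AMOTL1 (ENSSSCG00000014960, chromosome 9, 26811867 to 26978107 of Sscrofa11.1), whose product of the angiomotin family binds the growth regulator YAP1 at cell junctions. Its lowest, median and highest Control levels were 39.6, 47.4 and 55.5 CPM, and the 5 ULU libraries had 79.3, 82.5, 82.5, 98.1 and 83.6 CPM (log2(fold change) 0.83 ± 0.10 (SE), edgeR adjusted p = 0.000583, Benjamini-Hochberg). Every ULU library stood above every Control library, with ULU replicate 43 highest. AMOTL1 was also called against UL, where its mean was 55.6 ± 6.80 CPM (SD, n = 6; log2(fold change) of 0.61, adjusted p = 0.0302 by edgeR). The test against UL is given here for AMOTL1 and MYF6 alone. ULU and Control differ by both seaweed and enzyme, which cannot be told apart in their comparison. TEAD4, a DNA-binding factor through which YAP1 acts and which is active in muscle differentiation, had Control values of 18.1, 26.6 and 29.7 CPM as lowest, median and highest and ULU values of 41.7, 36.7, 50.7, 46.4 and 46.5 CPM (log2(fold change) 0.79 ± 0.13 (SE), edgeR adjusted p = 0.00502). The ULU range began above the Control range.

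The membrane protein gene EMP2 lay just under the fold limit. Its Control libraries ran from 48.9 to 59.9 CPM around a median of 54.0, and ULU libraries had 92.0, 97.6, 103, 150 and 95.7 CPM (log2(fold change) 0.99 ± 0.13 (SE), edgeR adjusted p = 0.000768). ULU replicate 43 was far above the other 4, which still exceeded all Control libraries. MAP2K3, a kinase that activates stress-responsive MAP kinases, had 35.5, 37.4 and 51.7 CPM as lowest, median and highest Control values and 72.0, 70.0, 66.9, 64.8 and 68.0 CPM in ULU (log2(fold change) 0.78 ± 0.11 (SE), edgeR adjusted p = 0.00101). PRKACA encodes the catalytic alpha subunit of protein kinase A, the cyclic AMP-dependent kinase that promotes glycogen breakdown. It ranged from 21.7 to 35.1 CPM in Control with a median of 23.0, and had 52.4, 46.9, 49.6, 57.9 and 39.3 CPM in ULU (log2(fold change) 0.98 ± 0.14 (SE), edgeR adjusted p = 0.00181). For both kinases Control replicate 25 was the highest Control library and came nearest to ULU, without reaching it.

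Mitochondrial genes were among the 10 genes described that were called higher under 2-fold. MFN2, which fuses outer mitochondrial membranes and ties mitochondria to the endoplasmic reticulum, had lowest, median and highest Control values of 53.0, 57.6 and 68.0 CPM and ULU values of 91.2, 95.2, 81.6, 97.1 and 110 CPM (log2(fold change) 0.68 ± 0.11 (SE), edgeR adjusted p = 0.00457, Benjamini-Hochberg). DMAC2, an assembly factor of respiratory complex I, was tightly grouped in ULU at 73.8, 71.1, 73.8, 74.5 and 74.8 CPM, beside 44.5 to 57.6 CPM in Control (log2(fold change) 0.57 ± 0.09 (SE), edgeR adjusted p = 0.00457). Neither gene overlapped between the diets. GPS1, a subunit of the signalosome that removes NEDD8 from ubiquitin ligases, had 23.1 to 29.7 CPM in Control and 33.6, 35.2, 42.6, 44.0 and 45.5 CPM in ULU (log2(fold change) 0.64 ± 0.10 (SE), edgeR adjusted p = 0.00457). VPS4A, an ATPase that takes apart membrane-cutting ESCRT filaments, went from a mean of 66.0 ± 8.41 (SD, n = 6) to one of 98.9 ± 9.53 CPM (SD, n = 5; log2(fold change) 0.58 ± 0.10 (SE), edgeR adjusted p = 0.00834). The ranges of GPS1 and VPS4A were also separate, with the lowest ULU library of GPS1 at 33.6 CPM.

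SRL encodes sarcalumenin, a calcium-binding protein of the sarcoplasmic reticulum. Control libraries had 253, 275 and 336 CPM as lowest, median and highest values and ULU libraries 441, 422, 449, 574 and 504 CPM (log2(fold change) 0.74 ± 0.13 (SE), edgeR adjusted p = 0.00836). All 5 ULU libraries were above the highest Control library. The calls of these 10 genes held without each of the 11 libraries in turn. With the share of counted reads as a covariate, AMOTL1 alone of the 10 was called.

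Among genes called lower under 2-fold, JAZF1 (ENSSSCG00000016691, chromosome 18, 44488511 to 44827091) came first. It encodes a zinc finger cofactor of nuclear receptors. Control libraries had 9.33, 11.2 and 11.8 CPM as lowest, median and highest values and ULU libraries 6.77, 4.61, 6.07, 5.22 and 5.64 CPM (log2(fold change) -0.95 ± 0.13 (SE), edgeR adjusted p = 0.000768, Benjamini-Hochberg). The ranges were well apart, on between 71 and 246 reads per library, and JAZF1 stayed called with the counted share as a covariate. CRY2, a cryptochrome that represses the activity of BMAL1 and CLOCK, had 30.8, 32.7 and 42.7 CPM in Control and 21.4, 19.2, 20.6, 25.7 and 22.2 CPM in ULU (log2(fold change) -0.63 ± 0.11 (SE), edgeR adjusted p = 0.00834). RNF180, a membrane-bound ubiquitin ligase, lay just inside the limit with 4.78, 7.80 and 8.52 CPM in Control and 3.19, 3.77, 4.12, 2.91 and 4.13 CPM in ULU (log2(fold change) -0.99 ± 0.17 (SE), edgeR adjusted p = 0.00834). For CRY2 and RNF180 every ULU library was below every Control library, where Control replicate 23 was high for CRY2.

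**Figure D3:**
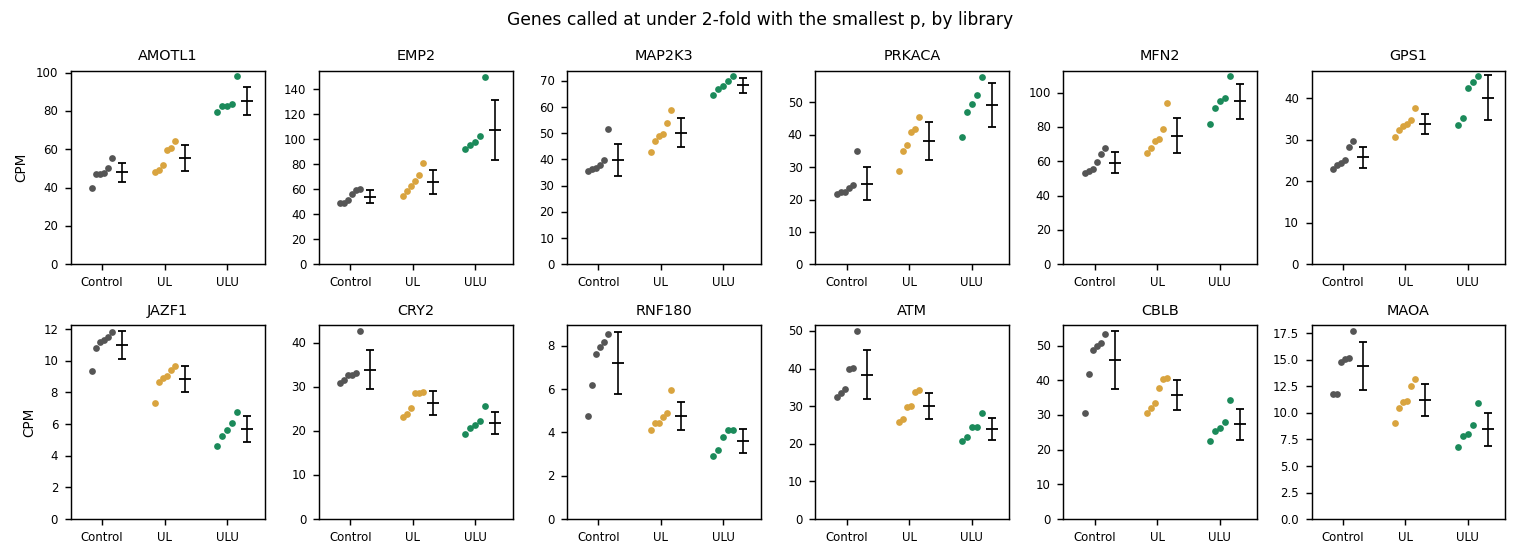
CPM in each library (vertical axes from 0) of the 6 genes with the smallest p called higher (top row) and lower (bottom row) under 2-fold, for Control, UL and ULU, with the mean ± SD beside the points. In 11 of the 12 panels the ULU and Control points do not overlap, the exception being CBLB, and the UL points of AMOTL1 overlap those of Control and not those of ULU.

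ATM, the kinase that signals DNA breaks, had 32.4, 37.2 and 50 CPM as lowest, median and highest Control values and 20.7, 24.6, 21.8, 28.2 and 24.5 CPM in ULU (log2(fold change) -0.68 ± 0.12 (SE), edgeR adjusted p = 0.00954). CBLB is a ubiquitin ligase that restrains T cell activation and, in unloaded muscle, marks the insulin receptor substrate for breakdown. It had 30.7, 49.2 and 53.4 CPM in Control and 22.5, 26.3, 34.4, 25.4 and 28.1 CPM in ULU (log2(fold change) -0.75 ± 0.14 (SE), edgeR adjusted p = 0.0107). ATM was separate between the diets, whereas the highest ULU library of CBLB exceeded the lowest Control library. MAOA, which breaks down serotonin and noradrenaline on the mitochondrial surface, had 11.8, 14.9 and 17.7 CPM and 8.82, 7.80, 6.76, 7.98 and 10.9 CPM in the same order (log2(fold change) -0.76 ± 0.15 (SE), edgeR adjusted p = 0.0122). COQ10B, a mitochondrial protein that binds coenzyme Q, was even in ULU at 18, 19.3, 19.4, 18.4 and 19.9 CPM, beside 25.1, 28.0 and 34.6 CPM in Control (log2(fold change) -0.62 ± 0.12 (SE), edgeR adjusted p = 0.0133). Both were lower in every ULU library than in any Control library.

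The shared receptor chain of the interleukin 6 family, IL6ST, had 97.8, 119 and 132 CPM as lowest, median and highest values in Control and 71.8, 92.5, 71.1, 86.6 and 85.8 CPM in ULU (log2(fold change) -0.53 ± 0.10 (SE), edgeR adjusted p = 0.0122). IPMK, a kinase of inositol phosphates, had 7.58, 9.30 and 11.5 CPM and 6.12, 4.94, 4.68, 7.10 and 4.43 CPM (log2(fold change) -0.78 ± 0.15 (SE), edgeR adjusted p = 0.0127). IFIT5, a sensor of RNA that interferon induces and a member of a gene family whose shared reads can be lost in counting, had 34.3, 41.8 and 52.5 CPM and 23.5, 25.6, 27.0, 20.2 and 30.1 CPM (log2(fold change) -0.76 ± 0.15 (SE), edgeR adjusted p = 0.0127). In all 3 genes the ULU libraries lay wholly below the Control libraries. These 10 calls also held without each of the 11 libraries, and JAZF1 alone of them was called with the counted share as a covariate.

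At 2-fold or more, 4 further genes called higher and 5 called lower are described, most of them low to moderate in level. MAMSTR, a coactivator of the muscle factor MEF2, had 13.5, 21.5 and 23.7 CPM as lowest, median and highest Control values and 41.5, 44.1, 44.1, 40.1 and 32.6 CPM in ULU (log2(fold change) 1.01 ± 0.14 (SE), edgeR adjusted p = 0.00181, Benjamini-Hochberg). CXXC5, a zinc finger protein that binds unmethylated DNA, had 8.35, 13.2 and 15 CPM and 24.2, 25.5, 33.8, 25.6 and 25.2 CPM (log2(fold change) 1.08 ± 0.17 (SE), edgeR adjusted p = 0.00457). Both were without overlap. GALNT16, an enzyme that starts O-linked sugar chains, averaged 5.21 ± 1.37 CPM (SD, n = 6) and 11.3 ± 2.57 CPM (SD, n = 5; log2(fold change) 1.12 ± 0.22 (SE), edgeR adjusted p = 0.0134), with the lowest ULU library inside the Control range. HOXC5, on 14 to 81 reads per library, averaged 0.934 ± 0.112 and 2.26 ± 0.818 CPM without overlap (log2(fold change) 1.27 ± 0.25 (SE), edgeR adjusted p = 0.0127). It lies in a cluster of overlapping HOX genes whose reads may be hard to assign, and DESeq2 on the 11 libraries gave it no adjusted p.

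Of those lower, IL1RAP, the chain that the interleukin 1 and interleukin 33 receptors share, had 4.80, 4.94 and 9.19 CPM as lowest, median and highest Control values and 1.88, 2.34, 1.73, 2.17 and 2.38 CPM in ULU (log2(fold change) -1.53 ± 0.23 (SE), edgeR adjusted p = 0.00317). HPGD, which inactivates prostaglandins, had 15.4, 18.9 and 24.1 CPM and 7.73, 12.5, 7.63, 7.64 and 8.27 CPM (log2(fold change) -1.12 ± 0.17 (SE), edgeR adjusted p = 0.0034). MYOC, a secreted glycoprotein found in muscle and in the eye, had 25.0, 44.5 and 58.0 CPM and 21.8, 19.8, 18.5, 20.8 and 13.7 CPM (log2(fold change) -1.16 ± 0.20 (SE), edgeR adjusted p = 0.00792). These genes were lower in every ULU library than in any Control library. TENT5A, a poly(A) polymerase, was nearly constant in ULU at 6.12, 6.63, 6.41, 6.41 and 6.13 CPM, below 11.5 to 17.2 CPM in Control (log2(fold change) -1.12 ± 0.19 (SE), edgeR adjusted p = 0.00815). MYF6, the myogenic factor most abundant in mature fibres, had 47.5, 76.6 and 92.6 CPM and 49.6, 33.3, 18.4, 36.2 and 33.8 CPM (log2(fold change) -1.10 ± 0.21 (SE), edgeR adjusted p = 0.0122), and ULU replicate 40 reached into the Control range. MYF6 averaged 66.5 ± 13.4 CPM in UL (SD, n = 6), and was not called in ULU against UL (adjusted p = 0.113 by edgeR). These 9 calls held without each of the 11 libraries and were lost with the counted share as a covariate.

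Pathways are described by 39 lists of genes. Over all 14203 tested genes 1.99% were called higher and 0.993% lower, 47.0% had a log2(fold change) above 0, and the median was -0.03. In this fit the lists furthest above that median were slow and fast fibre genes, calcium handling, glycolysis and glycogen, and the TCA cycle. Those furthest below it were the interferon response, the glucocorticoid response, the integrated stress response and the immediate early genes. These medians depend on single libraries. Without 1 library the medians of the integrated stress response ran from -0.83 to -0.39 and of the immediate early genes from -0.70 to -0.29, which overlaps -0.53 to -0.17 for the cell cycle and -0.46 to -0.15 for the mitochondrial chromosome. Above, 0.24 to 0.48 for glycolysis and glycogen and 0.26 to 0.38 for the TCA cycle overlap 0.17 to 0.33 for the sarcomere scaffold. In 8 of the 39 lists the median changed sign when 1 library was left out. Most members of either kind were not called one by one.

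**Figure D4:**
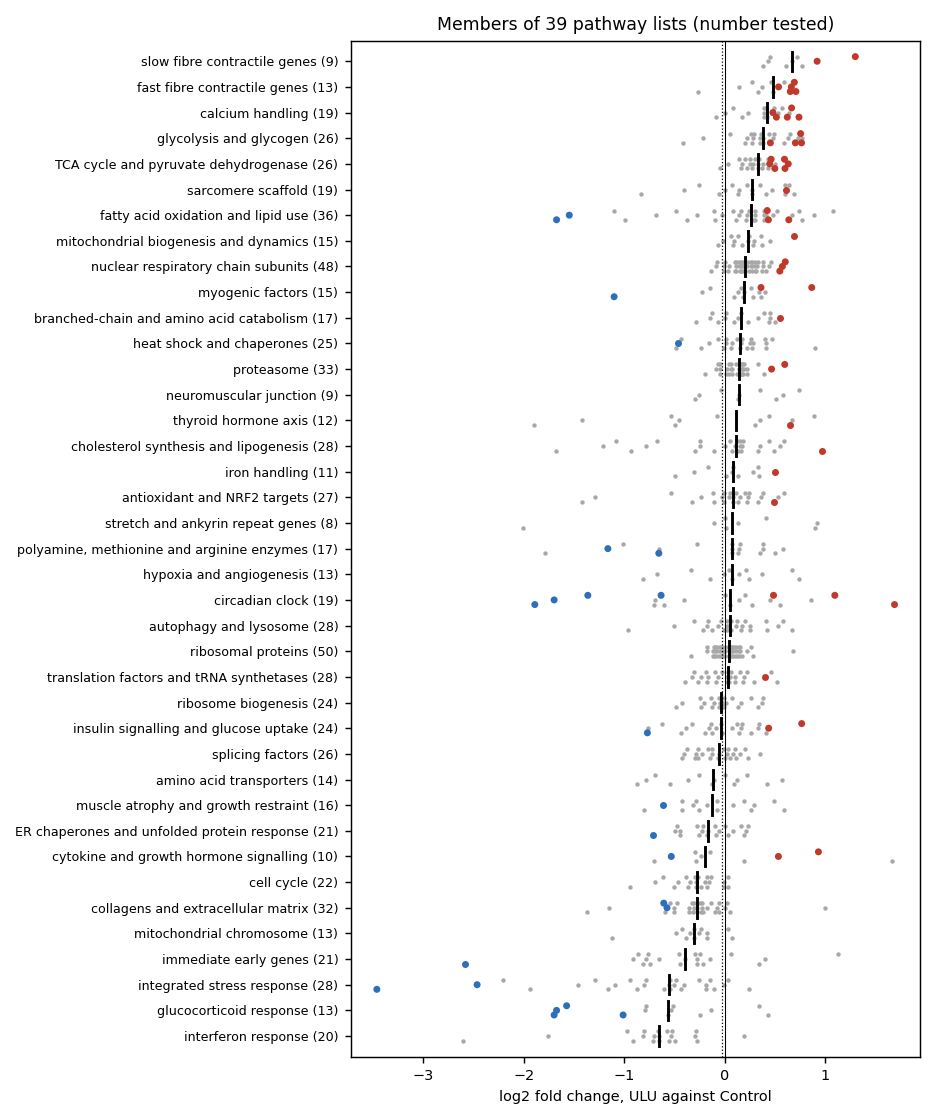
Each point is the log2(fold change) of ULU against Control (horizontal axis) of 1 gene in 39 pathway lists, whose number of tested genes stands in brackets. Red and blue points are genes called higher and lower, black bars are list medians and the dotted line is the median of all tested genes at -0.03, and the lists run from a median of 0.67 at the top to -0.66 at the bottom.

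Some genes of the contractile apparatus were called higher in each fibre class. Of the fast fibre list 13 of 15 genes were tested, 5 were called higher and none lower, and the median log2(fold change) was 0.48 (0.39 to 0.61) with 12 of 13 above 0. MYBPC2, the fast myosin-binding protein C, had lowest, median and highest Control values of 1679, 2290 and 2382 CPM and ULU values of 3540, 3288, 2743, 4383 and 3474 CPM (log2(fold change) 0.69 ± 0.13 (SE), edgeR adjusted p = 0.0122, Benjamini-Hochberg). ACTN3, the alpha-actinin of fast fibres, had 2828, 3754 and 4069 CPM and 5408, 5855, 4272, 7786 and 5841 CPM (log2(fold change) 0.71 ± 0.14 (SE), edgeR adjusted p = 0.0128). Both were wholly above Control and highest in ULU replicate 43. The fast calcium pump ATP2A1 averaged 3304 ± 313 and 5188 ± 996 CPM (log2(fold change) 0.65 ± 0.14 (SE), edgeR adjusted p = 0.0236), and its call was lost without Control replicate 24 or ULU replicate 43 or 44. The fast troponin T gene TNNT3 (log2(fold change) 0.66, edgeR adjusted p = 0.028) and the fast myosin MYH2 (log2(fold change) 0.53, edgeR adjusted p = 0.0397) were the other members called. TNNT3 lost its call in 6 of the 11 fits without 1 library, all but those without Control replicate 21, 24 or 25 or ULU replicate 42 or 44, and MYH2, whose near-identical myosin neighbours can share reads with it, lost it in 8 of the 11 fits without 1 library, all but those without Control replicate 21 or 25 or ULU replicate 42.

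Of the slow fibre list 2 genes were called. All 9 tested members of 11 were above 0 with a median of 0.67 (0.52 to 0.83), and 2 were called, TNNT1 and the slow troponin I gene TNNI1. TNNI1 had 319, 387 and 673 CPM as lowest, median and highest Control values and 1096, 1173, 684, 534 and 725 CPM in ULU (log2(fold change) 0.92 ± 0.23 (SE), edgeR adjusted p = 0.0406). ULU replicates 40 and 41 were highest and the others lay within or near the Control range, and the call was lost in 8 of the 11 fits without 1 library, all but those without Control replicate 25 or ULU replicate 42 or 43. TNNT1 (log2(fold change) 1.30, edgeR adjusted p = 0.0178) lost its call without ULU replicate 40 or 41. The myosin heavy chain gene MYH6, outside this list and named after its values were seen, was called higher with overlap (log2(fold change) 1.11 ± 0.25 (SE), edgeR adjusted p = 0.0236). Whether the call of MYH6 held without single libraries is not given here. The slow list had its highest level per length in the myosin light chain gene MYL2, at 2313 CPM per kilobase, and the fast list in MYL11 at 20252 CPM per kilobase; neither was called (adjusted p = 0.12 and 0.744 by edgeR). The summed level of the slow list was 5275 ± 1773 CPM in Control and 8918 ± 3001 CPM in ULU (SD, n = 6 and 5), and that of the fast list 142637 ± 28751 and 188540 ± 30289 CPM.

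The scaffold of the sarcomere had 1 called member of 19 tested, the M-band protein gene MYOM2 (log2(fold change) 0.61 ± 0.16 (SE), edgeR adjusted p = 0.0463), with a list median of 0.27 (0.17 to 0.33). Its call was lost in 9 of the 11 fits without 1 library, all but those without Control replicate 25 or ULU replicate 42. ACTA1, the scaffold gene with the highest level per length, had 49396, 68501 and 84008 CPM in Control and 103295, 104110, 75763, 151706 and 88835 CPM in ULU (log2(fold change) 0.64, edgeR adjusted p = 0.0666), and DESeq2 called 6 members of this list on either set of libraries. The 8 stretch and ankyrin repeat genes had a median of 0.07 (0.00 to 0.18) and no call by edgeR, with 2 at an unadjusted p under 0.05 and 2 called by DESeq2. ANKRD1 and the small heat shock gene HSPB7 had the smallest p among them (log2(fold change) -2.01, edgeR adjusted p = 0.0808 and log2(fold change) 0.90, edgeR adjusted p = 0.0987), and CRYAB the highest level per length. For ANKRD1 the diets overlapped and 1 library stood apart in each, Control replicate 26 at 1209 CPM and ULU replicate 42 at 287 CPM. Of the neuromuscular junction list 9 of 13 genes were tested and none was called by either tool or had an unadjusted p under 0.05. UTRN, COLQ and the acetylcholine receptor gene CHRNA1 had log2(fold change) values of -0.26, 0.73 and 0.58, where 1 ULU library reached 352 CPM of CHRNA1 and the others 19.4 to 51.3 CPM.

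Calcium handling had 5 of 19 tested genes called, all higher, a median of 0.42 (0.32 to 0.53) and 17 genes above 0. With SRL these were CACNB1, CAMK2A, PPP3CA and CAMK2B, the last 2 named after their values were seen. CACNB1, the beta subunit of the calcium channel that senses the action potential, had 134, 145 and 204 CPM as lowest, median and highest Control values and 211, 234, 218, 282 and 242 CPM in ULU (log2(fold change) 0.62 ± 0.11 (SE), edgeR adjusted p = 0.00898). CAMK2A, a calmodulin-dependent kinase, had 111, 137 and 170 CPM and 204, 213, 209, 310 and 176 CPM (log2(fold change) 0.66 ± 0.14 (SE), edgeR adjusted p = 0.0177). Neither overlapped, with Control replicate 25 the highest Control library of CACNB1. PPP3CA, a catalytic subunit of calcineurin, averaged 231 ± 19.8 and 329 ± 48.9 CPM (log2(fold change) 0.51 ± 0.11 (SE), edgeR adjusted p = 0.0193) and lost its call without ULU replicate 40 or 43. CAMK2B (log2(fold change) 0.48, edgeR adjusted p = 0.0485) lost it in 9 of the 11 fits without 1 library, all but those without Control replicate 25 or ULU replicate 42. The list's highest level per length was that of SLN, which encodes the pump inhibitor sarcolipin and had a log2(fold change) of -0.09 (adjusted p = 0.844 by edgeR).

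Of the myogenic factors 15 of 16 were tested, with a median of 0.19 (-0.05 to 0.31), 2 called higher and MYF6 lower. MYOD1, which commits cells to muscle and is more abundant in fast fibres, had 46.5, 53.3 and 63.2 CPM as lowest, median and highest Control values and 84.0, 66.1, 82.0, 171 and 96.4 CPM in ULU (log2(fold change) 0.86 ± 0.19 (SE), edgeR adjusted p = 0.0258). All ULU libraries exceeded Control, ULU replicate 43 by the most, and without that replicate the call was lost. MEF2C had the highest level per length and a log2(fold change) of 0.13.

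Of the glycolysis and glycogen list 26 of 27 genes were tested, 4 were called higher and none lower, 24 of 26 were above 0 and the median was 0.38 (0.24 to 0.48). PYGM, the muscle phosphorylase that releases glucose units from glycogen, had 5273, 7195 and 8849 CPM as lowest, median and highest Control values and 10392, 10672, 9317, 17725 and 12373 CPM in ULU (log2(fold change) 0.76 ± 0.17 (SE), edgeR adjusted p = 0.0228, Benjamini-Hochberg). GYS1, the muscle glycogen synthase, had 318, 389 and 406 CPM and 517, 463, 476, 605 and 522 CPM (log2(fold change) 0.45 ± 0.10 (SE), edgeR adjusted p = 0.0241). PFKM, the muscle phosphofructokinase, had 1106, 1584 and 1950 CPM and 2404, 1841, 2429, 4239 and 2357 CPM (log2(fold change) 0.75 ± 0.18 (SE), edgeR adjusted p = 0.0353). PYGM and GYS1 were wholly above Control, and PFKM overlapped, with ULU replicate 43 highest in each. PYGM lost its call without Control replicate 23 or ULU replicate 43, GYS1 without Control replicate 22 or 23 or ULU replicate 40 or 43 and PFKM in 6 of the 11 fits without 1 library, all but those without Control replicate 21 or 25 or ULU replicate 41, 42 or 44.

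The fourth was GPI, the second enzyme of glycolysis, named after its values were seen (log2(fold change) 0.70, edgeR adjusted p = 0.0391), whose call was lost in 7 of the 11 fits without 1 library, all but those without Control replicate 24 or 25 or ULU replicate 42 or 44. LDHA, the gene of the list with the highest level per length, was not called (log2(fold change) 0.38, edgeR adjusted p = 0.285). The glycolysis part of the list also holds FBP2, PFKFB1 and PFKFB3, which are not steps of glycolysis itself. All its 15 tested genes were above 0, with a median of 0.49 (0.39 to 0.63). The 11 genes of glycogen had a median of 0.29 (0.13 to 0.39). A difference between these medians was not tested.

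The TCA cycle and pyruvate dehydrogenase list was tested in full. Of its 26 genes 6 were called higher and none lower, 25 were above 0 and the median was 0.33 (0.26 to 0.38). MDH2, the mitochondrial malate dehydrogenase, had a Control mean of 577 ± 94.2 CPM with a highest value of 733, and 918, 833, 792, 997 and 930 CPM in ULU (log2(fold change) 0.63 ± 0.12 (SE), edgeR adjusted p = 0.0122). DLAT, a core subunit of pyruvate dehydrogenase, had lowest, median and highest Control values of 116, 132 and 184 CPM and ULU values of 222, 191, 197, 256 and 209 CPM (log2(fold change) 0.60 ± 0.13 (SE), edgeR adjusted p = 0.0177). Both were wholly above Control. MDH2 kept its call without each library and DLAT lost it without ULU replicate 43. SDHA, GOT2 and IDH3G, named after their values were seen, had log2(fold change) values of 0.45, 0.46 and 0.50 (adjusted p = 0.0423, 0.0485 and 0.0485 by edgeR), each lost in 9 of the 11 fits without 1 library, all but those without Control replicate 25 or ULU replicate 42, and SUCLA2 had the highest level per length (log2(fold change) 0.25, edgeR adjusted p = 0.323).

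**Figure D5:**
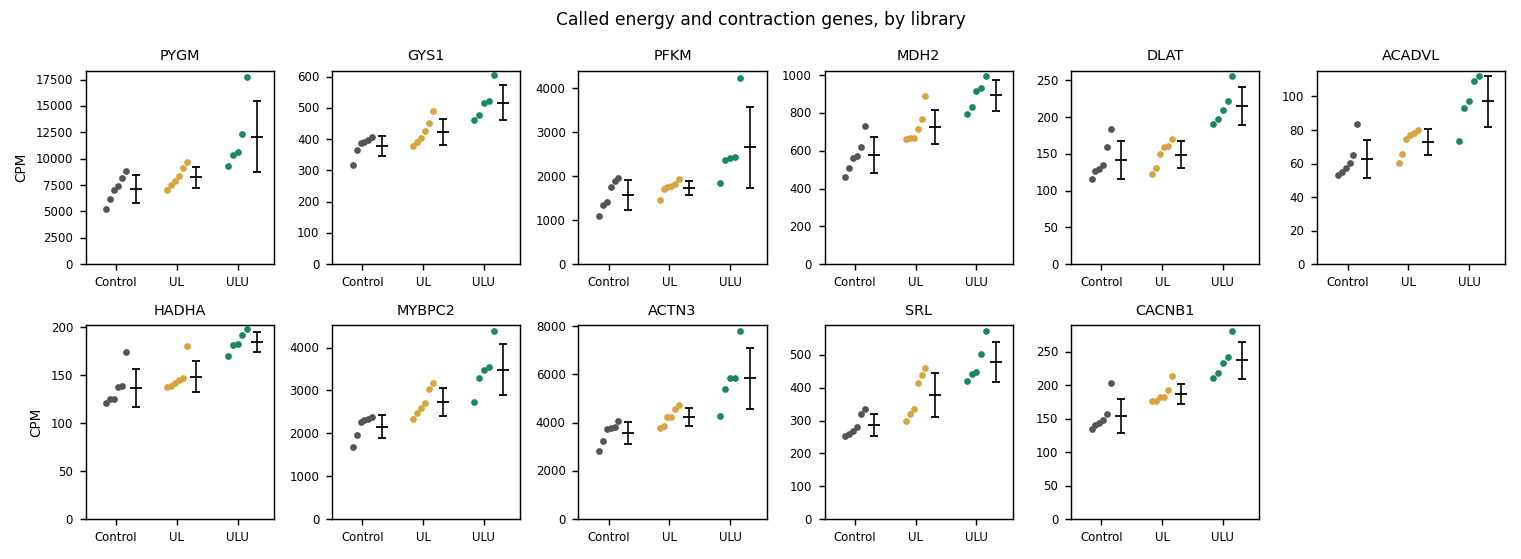
CPM in each library (vertical axes from 0) of 11 called genes of glycogen use, the TCA cycle, fatty acid oxidation, contraction and calcium handling in Control, UL and ULU, with the mean ± SD beside the points. ULU replicate 43 is the highest point in many panels, such as PFKM at 4239 CPM, and PFKM, ACADVL and HADHA overlap between Control and ULU.

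Of 61 listed genes for respiratory chain subunits encoded in the nucleus 48 were tested. Their median was 0.20 (0.15 to 0.27), with 43 above 0. The 3 called higher were all among the 27 tested genes of complex I, and a difference between the complexes was not tested. No tested member was of complex II, whose gene SDHA, called higher, is given with the TCA cycle. NDUFA10 averaged 79.8 ± 11 CPM in Control and 117 ± 16.1 CPM in ULU (SD, n = 6 and 5) (log2(fold change) 0.55 ± 0.12 (SE), edgeR adjusted p = 0.0232), NDUFV1 26.3 ± 4.56 and 39.9 ± 4.41 CPM (log2(fold change) 0.60, edgeR adjusted p = 0.0295), and NDUFB10 121 ± 28.0 and 180 ± 16.2 CPM (log2(fold change) 0.57, edgeR adjusted p = 0.0326). ULU and Control overlapped for the first and last, where Control replicate 25 was the highest Control library of NDUFB10. NDUFA10 lost its call without Control replicate 22 or ULU replicate 40 or 43, NDUFV1 in 7 of the 11 fits without 1 library, all but those without Control replicate 21 or 25 or ULU replicate 41 or 42 and NDUFB10 in 7 of the 11 fits without 1 library, all but those without Control replicate 21 or 25 or ULU replicate 42 or 44. NDUFA4, with the highest level per length, had a log2(fold change) of -0.14.

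The 13 protein-coding genes of the mitochondrial chromosome had a median of -0.31 (-0.46 to -0.15), with 11 below 0. None was called by edgeR, 3 had an unadjusted p under 0.05, and DESeq2 called none on 17 libraries and 1 on 11. Their summed level was 111003 ± 16522 CPM in Control and 91742 ± 20876 CPM in ULU with overlap, whereas the shares of raw counts did not overlap. ND3, a complex I subunit, had 1269, 1546 and 1700 CPM as lowest, median and highest Control values and 1159, 1105, 1196, 1203 and 962 CPM in ULU (log2(fold change) -0.42, edgeR adjusted p = 0.164). Its ULU libraries were all below Control although it was not called. COX1 (log2(fold change) -1.12, edgeR adjusted p = 0.146) and ATP6, the gene with the highest level per length (log2(fold change) -0.18, edgeR adjusted p = 0.602), overlapped. The mitochondrial biogenesis list had 15 of 17 genes tested, MFN2 called, 13 above 0 and a median of 0.23 (0.13 to 0.26), with the mitochondrial transcription factor TFAM at 0.36 (adjusted p = 0.135 by edgeR).

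The list of fat use had calls in both directions. All 12 tested oxidation enzymes were above 0, with a median of 0.34 (0.28 to 0.39) and 3 called higher, and 15 regulators and storage genes, 7 above and 8 below 0, had a median of -0.03 (-0.15 to 0.16), that of all tested genes, with 2 called lower. A difference between the 2 groups was not tested. ACADVL, which opens the oxidation of very long chains, had 53.4, 58.6 and 83.8 CPM as lowest, median and highest Control values and 93.3, 97.5, 73.6, 112 and 109 CPM in ULU (log2(fold change) 0.64 ± 0.13 (SE), edgeR adjusted p = 0.0155). HADHA, of the trifunctional protein, had 121, 132 and 174 CPM and 183, 182, 170, 192 and 198 CPM (log2(fold change) 0.43 ± 0.10 (SE), edgeR adjusted p = 0.0336). In both, Control replicate 25 reached into the ULU range. The call of ACADVL held without each library, and that of HADHA was lost in 8 of the 11 fits without 1 library, all but those without Control replicate 21 or 25 or ULU replicate 42. ETFDH, which passes electrons to coenzyme Q and was named after its values were seen (log2(fold change) 0.42, edgeR adjusted p = 0.0495), lost its call in 9 of the 11 fits without 1 library, all but those without Control replicate 25 or ULU replicate 41. PDK4, the kinase that switches off pyruvate dehydrogenase in fasting, had 5.09, 12.1 and 38.8 CPM in Control and 4.89, 7.15, 3.42, 4.68 and 7.10 CPM in ULU (log2(fold change) -1.67 ± 0.40 (SE), edgeR adjusted p = 0.0336), and lost its call without Control replicate 22 or ULU replicate 40, 41, 42 or 43. PPARG, given above, was the other gene called lower. Over the whole list 36 of 41 genes were tested, with a median of 0.26 (0.21 to 0.31), and ACADM had the highest level per length.

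The cholesterol and lipogenesis list was tested in full. Of its 28 genes INSIG1 was called (log2(fold change) 0.97 ± 0.23 (SE), edgeR adjusted p = 0.0337, Benjamini-Hochberg), which holds the activator of sterol synthesis in the endoplasmic reticulum. INSIG1 averaged 13.9 ± 3.73 CPM in Control and 27.1 ± 8.90 CPM in ULU with overlap, and lost its call without Control replicate 22, 23 or 24 or ULU replicate 40 or 42. The median was 0.16 (0.05 to 0.29) over 18 cholesterol genes and -0.73 (-0.85 to -0.24) over 10 lipogenic genes, so that the latter depends on single libraries, and IDI1, with the highest level per length, had a log2(fold change) of 0.00. Adipocyte markers, with a median of -1.04 (-1.34 to -0.38) that depends on single libraries too, also lay mostly below 0, and their part in the lipogenic median was not tested. Control replicate 24 stood apart in both, with 607 CPM of adipocyte markers without GPD1 and 1267 CPM of the whole cholesterol and lipogenesis list, beside 455 to 618 CPM of that list in the other Control libraries.

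In insulin signalling 24 of 26 genes were tested, with 2 called higher, 1 lower and a median of -0.04 (-0.10 to 0.04). AKT2, the kinase through which insulin drives glucose uptake, had 40.9, 52.4 and 61.2 CPM as lowest, median and highest Control values and 86.0, 77.0, 90.6, 94.9 and 90.3 CPM in ULU (log2(fold change) 0.76 ± 0.14 (SE), edgeR adjusted p = 0.00898). All ULU libraries were above Control, and the call held without each library. TBC1D4, the AKT substrate that holds glucose transporters inside the cell, averaged 58.4 ± 3.71 and 79.0 ± 13.9 CPM (log2(fold change) 0.44 ± 0.11 (SE), edgeR adjusted p = 0.0369). RICTOR, the defining subunit of the second mTOR complex, which phosphorylates AKT, averaged 35.2 ± 9.93 and 20.6 ± 1.80 CPM (log2(fold change) -0.77 ± 0.18 (SE), edgeR adjusted p = 0.0299). Both overlapped between the diets, TBC1D4 lost its call in 8 of the 11 fits without 1 library, all but those without Control replicate 25 or ULU replicate 40 or 42 and RICTOR in 8 of the 11 fits without 1 library, all but those without Control replicate 21 or 25 or ULU replicate 42. TXNIP had the highest level per length and ranged from 221 to 1025 CPM within ULU.

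In the branched-chain list 17 of 18 genes were tested, with a median of 0.16 (0.03 to 0.25) and ACAT1 highest per length, and BCKDK, the kinase that inhibits the committed step of branched-chain breakdown, was called. BCKDK had 69.0, 79.6 and 90.3 CPM as lowest, median and highest Control values and 123, 109, 109, 128 and 119 CPM in ULU (log2(fold change) 0.55 ± 0.10 (SE), edgeR adjusted p = 0.0103), with no overlap, and kept its call without each library. Of 14 tested amino acid transporters of 16 none was called by edgeR, 2 had an unadjusted p under 0.05 and DESeq2 called 1 on either set of libraries. The 2 were SLC38A2, wholly below Control (log2(fold change) -0.69, edgeR adjusted p = 0.0547), and SLC3A2, the most abundant per length (log2(fold change) -0.87, edgeR adjusted p = 0.192), and the list median was -0.12 (-0.17 to -0.08). In the polyamine, methionine and arginine list all 17 genes were tested, the median was 0.07 (0.05 to 0.13) and 2 were called lower. MTR, the methionine synthase, averaged 15.2 ± 1.53 and 9.61 ± 1.94 CPM without overlap (log2(fold change) -0.66 ± 0.16 (SE), edgeR adjusted p = 0.0336) and lost its call in 7 of the 11 fits without 1 library, all but those without Control replicate 21, 25 or 26 or ULU replicate 44, and MAT2A (log2(fold change) -1.16, edgeR adjusted p = 0.0222) lost it without Control replicate 23 or ULU replicate 43 or 44. OAZ1 had the highest level per length.

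The clock list, with 19 of 19 genes tested, had 3 genes called higher and 4 lower, and a median of 0.05 (-0.01 to 0.14). All 5 activators were above 0 with a median of 0.48 (0.43 to 0.54), and 11 repressors, 4 above and 7 below 0 with 4 called lower and NFIL3 higher, had a median of -0.61 (-0.70 to -0.47). Besides CRY2, the call under 2-fold was that of CLOCK, named after its values were seen, with Control values of 49.9, 55.8 and 63.0 CPM as lowest, median and highest and ULU values of 66.3, 75.4, 85.9, 88.8 and 76.5 CPM (log2(fold change) 0.48 ± 0.12 (SE), edgeR adjusted p = 0.0391, Benjamini-Hochberg). CLOCK was wholly above Control and lost its call in 8 of the 11 fits without 1 library, all but those without Control replicate 21 or 25 or ULU replicate 40. PER3, a period protein, averaged 4.19 ± 1.27 and 1.63 ± 0.766 CPM (log2(fold change) -1.36 ± 0.30 (SE), edgeR adjusted p = 0.0218) and NFIL3, a repressor of clock output genes, 7.96 ± 2.02 and 16.9 ± 5.53 CPM (log2(fold change) 1.09 ± 0.29 (SE), edgeR adjusted p = 0.0485), both without overlap and both named after their values were seen. PER3 lost its call without Control replicate 23 or ULU replicate 43 and NFIL3 in 9 of the 11 fits without 1 library, all but those without Control replicate 21 or ULU replicate 44. The rest were BMAL1 (log2(fold change) 1.69, edgeR adjusted p = 0.00693), PER1 (log2(fold change) -1.70, edgeR adjusted p = 0.00502) and PER2 (log2(fold change) -1.89, edgeR adjusted p = 0.000229), and BHLHE40 had the highest level per length. With the counted share as a covariate PER1 and PER2 were still called, and the hour at which the muscles were taken is not given in the sources used here.

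Some genes that glucocorticoids induce were called lower. Of 13 of 15 tested, 4 were called lower and none higher, 11 were below 0 and the median was -0.56 (-0.71 to -0.54). GLUL, the glutamine synthetase and the most abundant per length, had 160, 258 and 336 CPM as lowest, median and highest Control values and 86.7, 124, 107, 179 and 134 CPM in ULU (log2(fold change) -1.01 ± 0.20 (SE), edgeR adjusted p = 0.0127). ULU replicate 43 reached the Control range. CEBPD, a transcription factor named after its values were seen, averaged 6.5 ± 3.25 and 2.18 ± 0.981 CPM (log2(fold change) -1.57 ± 0.41 (SE), edgeR adjusted p = 0.0458) and lost its call in 9 of the 11 fits without 1 library, all but those without Control replicate 24 or ULU replicate 42, and the other 2 were PER1 and PDK4, which stand in other lists too. In the atrophy list, tested in full with 16 genes and a median of -0.13 (-0.23 to -0.09), FOXO1, which turns on muscle ubiquitin ligases, was called (log2(fold change) -0.61 ± 0.16 (SE), edgeR adjusted p = 0.0414) and lost its call in 7 of the 11 fits without 1 library, all but those without Control replicate 24, 25 or 26 or ULU replicate 44. CDKN1A, with the highest level per length, had a log2(fold change) of 0.29.

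In the integrated stress response list 28 of 29 genes were tested, 26 were below 0, the median was -0.55 (-0.83 to -0.39), and ATF3 (log2(fold change) -3.46, edgeR adjusted p = 0.00898) and CHAC1 (log2(fold change) -2.46, edgeR adjusted p = 0.0337) were called lower. CHAC1 lost its call in 6 of the 11 fits without 1 library, all but those without Control replicate 21, 22, 24 or 25 or ULU replicate 41. ATF4, the factor at its centre and the most abundant per length, had 622 ± 145 CPM in Control and 618 ± 171 CPM in ULU. The endoplasmic reticulum list had 21 of 23 genes tested and a median of -0.17 (-0.24 to -0.07), with its 7 sensors and factors all below 0. One of these, the transcription factor XBP1, was called, with 59.0, 86.7 and 125 CPM as lowest, median and highest Control values and 58.2, 52.6, 57.3, 47.4 and 47.8 CPM in ULU (log2(fold change) -0.72 ± 0.16 (SE), edgeR adjusted p = 0.0222). XBP1 was lower in every ULU library than in any Control library and lost its call without ULU replicate 43, and HSPA5, the chaperone with the highest level per length, had a log2(fold change) of -0.17. Of 21 tested immediate early genes of 24, NR4A3 was called lower (log2(fold change) -2.58, edgeR adjusted p = 0.0295), the median was -0.39 (-0.70 to -0.29), and DUSP1 was the most abundant per length. NR4A3 lost its call without Control replicate 22 or 23 or ULU replicate 40, 43 or 44.

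In the proteasome list 33 of 35 genes were tested, 27 were above 0 with a median of 0.14 (0.10 to 0.16) and 2 were called higher. PSMA7, an alpha subunit of the core, had 65.7, 74.7 and 98.1 CPM as lowest, median and highest Control values and 114, 116, 144, 111 and 101 CPM in ULU (log2(fold change) 0.60 ± 0.11 (SE), edgeR adjusted p = 0.0102), and PSMC5, an ATPase of the cap, had 99.4, 115 and 147 CPM and 158, 151, 158, 191 and 158 CPM (log2(fold change) 0.46 ± 0.11 (SE), edgeR adjusted p = 0.0354). Neither overlapped. PSMA7 kept its call without each library and PSMC5 lost it in 8 of the 11 fits without 1 library, all but those without Control replicate 21 or 25 or ULU replicate 42, while PSMB1, the most abundant per length, had a log2(fold change) of 0.02. Of 28 tested autophagy and lysosome genes of 29 none was called by edgeR, with a median of 0.05 (0.03 to 0.11), 8 at an unadjusted p under 0.05 and 2 called by DESeq2 on either set of libraries. ATG9A and ATG16L1 had the smallest p values (log2(fold change) 0.42, edgeR adjusted p = 0.0599 and log2(fold change) 0.57, edgeR adjusted p = 0.0857), and SQSTM1 the highest level per length. Of the heat shock and chaperone list 25 of 26 genes were tested, with a median of 0.15 (-0.07 to 0.23) and HSPB8 highest per length, and DNAJB4, a partner of the HSP70 chaperones, was called lower without overlap (log2(fold change) -0.46 ± 0.12 (SE), edgeR adjusted p = 0.0409). Its call was lost in 9 of the 11 fits without 1 library, all but those without Control replicate 25 or 26.

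Of 50 tested ribosomal protein genes of 55 none was called by edgeR or DESeq2 and 1 had an unadjusted p under 0.05. Their median was 0.04 (-0.01 to 0.11), with RPLP1 the most abundant per length and RPL8 and RPS12 the lowest in p (log2(fold change) of 0.28 and -0.33). Of 24 tested ribosome biogenesis genes of 25 none was called by either tool and 2 had an unadjusted p under 0.05, PES1 and RRP12 (0.37 and 0.38 on the log2 scale), with a median of -0.03 (-0.09 to -0.00) and GNL3 the highest per length. Among translation factors and tRNA synthetases 28 of 29 were tested, with a median of 0.03 (-0.01 to 0.08) and EIF1 highest per length. EIF4G1, the scaffold of the cap-binding complex, was called (log2(fold change) 0.40 ± 0.11 (SE), edgeR adjusted p = 0.0484) without overlap, and lost its call in 10 of the 11 fits without 1 library, all but those without Control replicate 25 and also with upper quartile normalization.

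The matrix list was tested in full, and of 32 genes 28 were below 0, the median was -0.28 (-0.44 to -0.21) and 2 were called lower. TIMP3, an inhibitor of matrix proteases, had 74.7, 86.7 and 103 CPM as lowest, median and highest Control values and 52.1, 69.8, 35.4, 70.4 and 61.9 CPM in ULU (log2(fold change) -0.58 ± 0.15 (SE), edgeR adjusted p = 0.046), wholly below Control. FBN1, the fibrillin of microfibrils, had 40.7, 78.4 and 85.1 CPM and 47.4, 43.1, 46.9, 37.1 and 57.8 CPM (log2(fold change) -0.61 ± 0.16 (SE), edgeR adjusted p = 0.0485), with 1 Control library inside the ULU range. TIMP3 lost its call in 9 of the 11 fits without 1 library, all but those without Control replicate 21 or 25 and FBN1 in 9 of the 11 fits without 1 library, all but those without Control replicate 25 or ULU replicate 44. COL3A1, the most abundant per length, had 3247 ± 806 and 2621 ± 837 CPM (log2(fold change) -0.31, edgeR adjusted p = 0.527). The fibroblast markers given above were below 0 too, COL3A1 being in both, and their part in it was not tested.

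Of 20 tested interferon response genes of 22, 19 were below 0 with a median of -0.66 (-0.77 to -0.49), and none was called by edgeR. At an unadjusted p under 0.05 there were 11, and DESeq2 called 3 on 17 libraries and 1 on 11. IFIT5, given above as called lower, was not a member of this list. ISG15 had 8.34, 14 and 207 CPM as lowest, median and highest Control values and 5.63, 7.15, 8.28, 6.41 and 10.8 CPM in ULU (log2(fold change) -2.60 ± 0.73 (SE), edgeR adjusted p = 0.0592). Control replicate 21 was far above all other libraries, and 3 of the 6 Control libraries lay within the ULU range. CXCL10 (log2(fold change) -1.76, edgeR adjusted p = 0.0895) and IFI6, the most abundant per length (log2(fold change) -0.65, edgeR adjusted p = 0.217), overlapped as well. The summed level of the list was 544 to 1701 CPM in Control and 581, 708, 915, 474 and 756 CPM in ULU, and leukocyte markers, given above, were below 0 too.

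In cytokine and growth hormone signalling 10 of 13 genes were tested, with a median of -0.19 (-0.24 to -0.10). IL6ST was called lower and both STAT5 genes, which carry the growth hormone signal to the nucleus, were called higher. STAT5A had 28.5, 36.0 and 59.1 CPM as lowest, median and highest Control values and 60.0, 82.7, 76.0, 55.6 and 97.9 CPM in ULU (log2(fold change) 0.93 ± 0.20 (SE), edgeR adjusted p = 0.0199), and STAT5B averaged 25.8 ± 4.64 and 37.4 ± 6.68 CPM (log2(fold change) 0.53 ± 0.13 (SE), edgeR adjusted p = 0.0367). Each overlapped in part, the 2 are close copies side by side on chromosome 12 and could share reads, and STAT5B lost its call in 7 of the 11 fits without 1 library, all but those without Control replicate 21 or 25 or ULU replicate 40 or 41 whereas STAT5A kept it. IGFBP6 was the most abundant per length. Of 22 tested cell cycle genes of 24, 20 were below 0 with a median of -0.27 (-0.53 to -0.17). None was called by edgeR, 4 had an unadjusted p under 0.05 and DESeq2 called 1, with MCM4 and CCNE2 smallest in p (log2(fold change) -0.69, edgeR adjusted p = 0.0641 and log2(fold change) -0.51, edgeR adjusted p = 0.128) and CCND2 highest per length.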

How the data were processed

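Muscle RNA of 17 piglets was sequenced, and the authors deposited counts of reads per gene, made with fastp, hisat2 and featureCounts (2.0.1 in the file header) on Sscrofa11.1 with an Ensembl annotation. No option for strand or multi-mapping reads is stated. The mean column of the file served only as a check. Symbols came first by Ensembl identifier, for 15028 of 31908 genes, and then by RefSeq position, for 4324, where at least 10% of exonic bases were shared. One edgeR (4.0.16) quasi-likelihood model of the 17 libraries, with 3 group means, TMM factors and filterByExpr, gave ULU minus Control. It was adjusted by Benjamini-Hochberg over 14203 genes, called at an adjusted p under 0.05 and split at 2-fold. The standard errors (SE) were derived from the test, as the size of the log2(fold change) divided by the square root of its F statistic. Depth gave a floor of 3 reads, 0.13 to 0.195 CPM. Named are, by smallest p, up to 10 genes per direction under 2-fold and 5 at 2-fold or more, without LOC numbers and genes already described from these data, then up to 3 called genes per list and the most abundant per length, of which 3 genes are not described. The members and lists were chosen with earlier results of these data known. Library measures had exact permutation tests. Alternatives were DESeq2 (1.42.0), other normalization, filter, dispersion, covariate, pairing and libraries. R 4.3.3 and Python 3.11.15 were used, and the scripts were tested on simulated data. Promoter motifs were not analysed, since no sequences were given.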

Additional observations from a re-analysis of the deposited data

Results flagged for a closer look

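Of 374 groups of libraries examined, 40 held 1 library whose gap to the nearest other was large for the range of its group by Dixon's criterion, where chance gives about 1 in 20. Control replicate 25 stood apart in 23433672 counted reads, in a low sum of fibroblast markers (2748 CPM) with low COL3A1 (1613) and PDGFRA (21.1), and in high MAP2K3 (51.7), PRKACA (35.1), PER1 (60.4), NDUFB10 (177), HADHA (174), CACNB1 (204), GOT2 (543) and ETFDH (186), all in CPM. ULU replicate 43 stood apart in AMOTL1 (98.1), EMP2 (150), PSMC5 (191), PFKM (4239), MYOM2 (2362), CAMK2A (310), MYOD1 (171), RPL8 (521) and GPI (4102), all highest of the 5. Control replicate 23 did so in CRY2 (42.7), DUSP1 (70.7), TXNIP (767), MAT2A (265) and RPS12 (376), and Control replicate 24 in CXXC5 (8.35, the lowest) and in MYH11 (12.7), PPARG (13) and ADIPOQ (238). ULU replicate 42 was the highest in CXXC5 (33.8), ANKRD1 (287), CHRNA1 (352), MEF2C (473) and TYROBP (25.7). The rest were DMAC2 (71.1, the lowest) and HPGD (12.5) in ULU replicate 41, ANKRD1 in Control replicate 26 (1209), and ISG15 (207) and PECAM1 (47.7, the lowest) in Control replicate 21. The genes were chosen partly for their differences, so that the flags are not independent, and why libraries stood apart was not tested.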

How the results depend on the processing

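No called gene changed direction under any alternative. DESeq2 on 17 libraries called 642 genes higher and 386 lower (611 and 305 under 2-fold, 112 at 2-fold or more), and on 11 libraries 557 and 287 (539 and 243 under 2-fold). edgeR on 11 libraries called 74 higher and 37 lower (62 and 22 under 2-fold, 27 at 2-fold or more). With no filter, where more genes are tested, 174 and 54 were called (152 and 34 under 2-fold). With the share of counted reads as covariate, a measure that differed between the diets, 3 and 3 were called (1 and 1 under 2-fold, 4 at 2-fold or more). For the DESeq2 fits, edgeR on 11 libraries, the fit with no filter and the covariate fit the cause was not tested. Leaving out each library in turn gave 99 to 477 genes called higher and 42 to 322 lower. Under 2-fold these were 85 to 433 higher and 28 to 245 lower, and 30 to 121 were called at 2-fold or more. The cause of these changes, also of the rise without Control replicate 25, was not tested. RLE or upper quartile factors, the mitochondrial genes left out, a filter of 1 CPM in 5 libraries and the robust fit kept each count within 1.5 times. Of 92 called genes followed one by one, 45 kept their call without each library. All 92 kept it with DESeq2 on 17 libraries, RLE factors, the mitochondrial genes left out and 1 CPM in 5 libraries. DESeq2 on 11 libraries kept 91 and gave HOXC5 no adjusted p. The call held for 91 with the robust fit, 88 with upper quartile factors, 71 with no filter, 45 with edgeR on 11 libraries and 4 with the covariate. Leaving out Control replicate 25 and ULU replicate 43 together, chosen after seeing the data, kept 76. Pairing of symbols at 50% of exonic bases left 1 fibre marker called. The called fibre markers, MYH2 and TNNT3, also stand in the fast fibre list, so that 1 of these names rests on a smaller overlap. No paired analysis was possible because the replicate numbers of the diets are not shared. Leaving out 1 library changed the sign of the median in 8 of the 39 pathway lists, the clock, cholesterol and lipogenesis, insulin signalling, neuromuscular junction, myogenic factors, ribosomal proteins, translation factors and heat shock, and in 1 of the 9 marker lists, satellite cells. The 3551 least abundant genes had a median standard error of 0.44, and counting error was not separated from the spread between animals.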

Other observations

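Of 27 tested antioxidant genes of 28, the median log2(fold change) was 0.08 (0.04 to 0.13) with 17 above 0. GLRX3, which helps to build iron-sulfur clusters, was called higher (log2(fold change) 0.49 ± 0.13 (SE), edgeR adjusted p = 0.0485) with overlap, and lost its call in 9 of the 11 fits without 1 library, all but those without Control replicate 21 or 25. PRDX3 was the most abundant per length. Of 11 of 14 iron genes tested, with a median of 0.08 (0.03 to 0.16) and FTH1 highest per length, HJV, a muscle co-receptor that regulates iron, was called higher (log2(fold change) 0.50 ± 0.12 (SE), edgeR adjusted p = 0.0359) with overlap, and lost its call in 8 of the 11 fits without 1 library, all but those without Control replicate 25 or ULU replicate 40 or 42. Of 12 of 14 thyroid hormone genes tested, with a median of 0.11 (0.03 to 0.17), ATP2A1, given above, was called and was highest per length.

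Of 13 tested hypoxia and angiogenesis genes of 14 none was called by edgeR, 4 had an unadjusted p under 0.05, and DESeq2 called 1 on 17 libraries and 2 on 11. The median was 0.07 (0.03 to 0.18), with ADM, wholly below Control (log2(fold change) -0.81, edgeR adjusted p = 0.0673), and BNIP3, highest per length (log2(fold change) 0.66, edgeR adjusted p = 0.141). Of 26 tested splicing factors of 27 none was called by edgeR, 7 had an unadjusted p under 0.05 and DESeq2 called 2 on either set of libraries. The median was -0.06 (-0.10 to -0.01), with TRA2A wholly below Control (log2(fold change) -0.38, edgeR adjusted p = 0.0861), CLK1 overlapping (log2(fold change) -0.43, edgeR adjusted p = 0.0884) and MBNL1 highest per length.

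The numbers of piglets are small, 6 against 5. RNA levels of whole muscle do not give protein, activity or cell numbers. Counting without a stated strand does not separate reads of overlapping genes.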
